A study of Mus musculus with 7 samples.

Results

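The solute carriers of the blood-brain barrier are 32 genes, listed by name. Most of their products move nutrients, hormones and ions across the wall of brain vessels. Slc25a4, a mitochondrial carrier, is an exception that was kept in all counts of the list. Each gene was read in the deposited array values through probe sets annotated with its symbol alone. A gene with several such probe sets was read from the brightest. In this way 31 of the 32 genes were measured, out of 22180 genes with a single symbol, and all 31 were bright enough to be tested. Slc6a9, a glycine carrier, shares its probe set with another gene and was not analysed here. The samples were vascular fragments, pieces of small vessels prepared from the brains of female C57BL/6 mice aged 12 weeks. That strain is from the sample labels, while the design text of the series gives C57BL/6N. One group of 4 arrays came from mice given PDGF-CC by intracerebroventricular (ICV) injection, and the other group of 3 arrays from mice given PBS by the same route, both taken 4 hours after the injection. No genetic change is named for either group. Whether a sample is 1 mouse or a pool is not stated, and p-values therefore refer only to the variation among these 7 arrays, some of which may be technical.

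Brain endothelial cells are joined by tight junctions, so polar nutrients reach the brain through carriers in their membranes. GLUT1, encoded by Slc2a1, carries glucose, and LAT1, a heterodimer of the light chain encoded by Slc7a5 and the heavy chain encoded by Slc3a2, carries large neutral amino acids and thyroid hormone. Organic anion carriers such as those encoded by Slco1a4, Slco1c1 and Slc22a8 move hormones, drugs and metabolites, and monocarboxylate carriers move lactate and ketone bodies. PDGF-CC is a growth factor that acts through PDGFR-alpha on cells around the vessels, and it is known as a factor that can loosen the barrier.

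Sequences upstream of the start site are shown for the carrier with the largest difference between the groups, Slc7a8, and for the hallmark carrier of the barrier, Slc2a1. Both come from the RefSeq promoter table of GRCm38.p6, read 5′ to 3′ on the strand of the gene, and end 1 base before the start site. The window of Slc7a8 is chr14:54781887-54782136 on the minus strand, and that of Slc2a1 is chr4:119108495-119108744 on the plus strand. Capitals mark matches, on either strand, to any of the motifs TGATGNAAN (an amino acid response element), ACGTG (the core of a hypoxia response element), GGGCGG (a GC box), TATAAA (the core promoter box of that name) and AGAACA (a glucocorticoid receptor half-site).
Slc7a8: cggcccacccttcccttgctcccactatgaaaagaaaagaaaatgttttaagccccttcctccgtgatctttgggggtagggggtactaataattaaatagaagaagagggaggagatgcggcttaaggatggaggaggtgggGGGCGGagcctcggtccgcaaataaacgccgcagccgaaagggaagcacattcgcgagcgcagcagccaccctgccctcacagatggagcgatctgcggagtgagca
Slc2a1: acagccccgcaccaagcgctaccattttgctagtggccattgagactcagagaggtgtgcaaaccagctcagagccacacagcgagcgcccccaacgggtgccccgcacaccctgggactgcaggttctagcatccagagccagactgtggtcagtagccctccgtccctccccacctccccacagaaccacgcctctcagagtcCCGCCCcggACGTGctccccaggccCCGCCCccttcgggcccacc
Slc7a8 held 1 match, a GC box, and Slc2a1 held 3, which were 2 GC boxes and 1 hypoxia core, with no overlap between matches. Of the 32 genes, 25 had a window in the table, and each was read from the first one listed. The shares over the table count every window, also where a gene has several, so the sets compared are unlike. A GC box was found in 16 of these 25, against 32.7% of all 32851 windows of the table. A hypoxia core was found in 6 of 25 (16.6% of all windows), a TATA box in 2 (12.4%), a glucocorticoid half-site in 1 (16.1%) and the amino acid response element in 0 (3.4%). Of the 25 windows, 15 lie before the annotated gene and 10 inside it, where a start site downstream of the first was listed. The window of Slc3a2, counted among the GC box and the hypoxia core matches, is one of the 10. A match describes the letters only and is no evidence of binding.

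Each sample was hybridised to 1 array, and values are on the log2 scale, so that a difference of 1 is a doubling. Precision is limited by how few arrays there are. Values of the 17734 tested probe sets correlated at 0.982 to 0.992 between arrays. All 14 endothelial markers were above the filter on dim probe sets (a log2 mean of 4.14), with list means between 10.5 and 10.7 in every array. The 7 neuronal markers had list means between 4.88 and 5.04, the 10 pericyte markers between 8.62 and 9.18 and the 7 microglial markers between 9.40 and 9.91. These lists rest on different probe sets, so their levels do not measure the share of each cell type. In bulk samples, fewer cells of a type and less RNA per cell cannot be told apart.

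No carrier passed the adjusted threshold of 0.05. Of 31 carriers, 12 were at higher values in PDGF-CC and 19 at lower values. The share at higher values was 38.7%, against 48.4% of all tested probe sets. By limma with Benjamini-Hochberg adjustment over all tested probe sets 0 carriers were past the threshold, against 0% of those probe sets. The smallest adjusted p among the carriers was 0.769. At an unadjusted p under 0.05 there were 2 carriers, Slc7a8 (higher) and Slc3a2 (lower), against 6.04% of all tested probe sets. In 0 of 31 carriers were the groups free of overlap, against 4.3% of all tested probe sets. These counts use the brightest probe set of each gene; the other probe sets of Slc2a1 and Slc1a5 had an unadjusted p under 0.05 as well, both at lower values. For 29 carriers the 95% interval of the difference lay within 1.5-fold in either direction, and for 7 it lay within 1.2-fold. Over all tested probe sets these shares were 88.3% and 37.7%, and for the carriers 93.5% and 22.6%, so that fewer carriers than probe sets in general were bounded within 1.2-fold. The intervals of all 31 carriers lay short of a doubling or a halving, as did those of 17359 of the 17734 tested probe sets. The median difference was -0.06 over the carriers and -0.004 over all tested probe sets, and it was +0.01 without PBS array 3 and -0.10 without PBS array 2. Leaving out 1 array moved the difference of 30 of the 31 carriers by over 1.5 times, with Slc7a8 the exception.

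**Figure D1:**
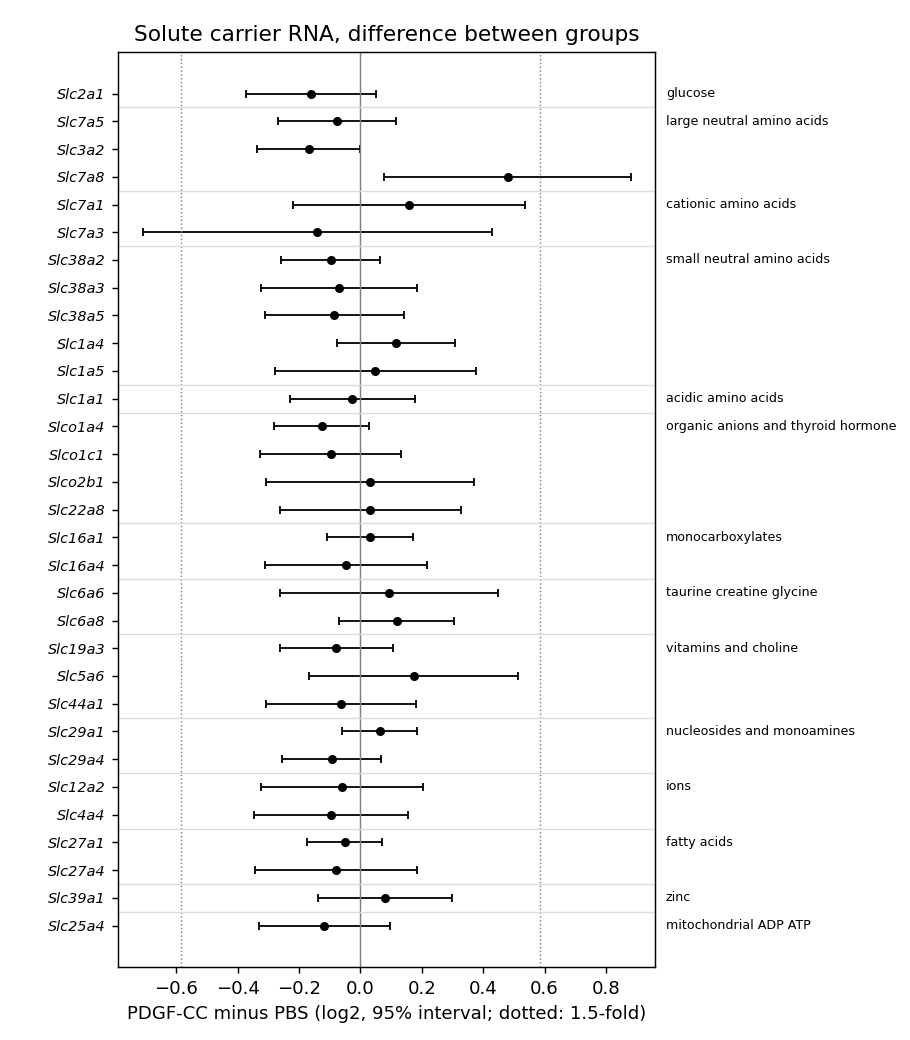
Difference between PDGF-CC (n = 4) and PBS (n = 3) for the 31 measured carriers on the log2 scale, grouped by what they carry. Points are differences, bars are 95% intervals from limma, and dotted lines mark 1.5-fold. The intervals of 29 carriers lie between the dotted lines, and those of Slc7a8 and Slc7a3 reach beyond them.

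Glucose carriage showed no difference that passed the test. Slc2a1 was at 12.09, 12.30, 12.39 and 12.39 in PDGF-CC arrays 1 to 4 and at 12.47, 12.36 and 12.54 in PBS arrays 1 to 3. PDGF-CC array 1 was the lowest of all, and the highest PDGF-CC arrays overlapped PBS array 2. The difference was -0.16 ± 0.089 (log2, SE, n = 4 and 3), with a 95% interval from 0.773-fold to 1.04-fold. A second, dimmer probe set of Slc2a1 differed by -0.33 ± 0.14, in the same direction. The difference of the brighter probe set was -0.09 without PDGF-CC array 1 and -0.06 after repeated quantile normalization. It was -0.21 without PBS array 2 and -0.24 with the mean of both probe sets.

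Of the 3 genes of large neutral amino acid carriers, Slc7a8 was at a higher value and Slc3a2 and Slc7a5 at lower values in PDGF-CC, and none passed the test. Slc7a8 encodes LAT2, a light chain related to that of LAT1. It was at 9.13, 9.13, 8.74 and 8.67 in the PDGF-CC arrays and at 8.69, 8.15 and 8.47 in the PBS arrays. PDGF-CC arrays 1 and 2 were the highest, and only PDGF-CC array 4 fell below PBS array 1. The difference of Slc7a8, +0.48 ± 0.17, was the largest of the 31, with an interval from 1.06-fold to 1.84-fold (limma adjusted p = 0.769). The sample descriptions number the arrays from 1 to 7 and name no batch. A cut after number 4, made here and not given by the labels, splits them into 2 parts. PDGF-CC arrays 1 and 2 then stand beside PBS arrays 1 and 2 (numbers 1 to 4), and PDGF-CC arrays 3 and 4 beside PBS array 3 (numbers 5 to 7). Within these parts the difference of Slc7a8 was +0.71 and +0.23, the second resting on 1 PBS array. Of the 31 carriers, 17 had the same sign in both parts.

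Slc3a2, the heavy chain gene, was at 10.38, 10.46, 10.51 and 10.53 in PDGF-CC and at 10.64, 10.52 and 10.75 in PBS. Only PBS array 2 lay among the PDGF-CC arrays. The difference was -0.17 ± 0.071, with an interval from 0.792-fold to 1.0-fold (limma adjusted p = 0.769). It was -0.11 without PBS array 3 and -0.23 without PBS array 2. Slc7a5 was at 11.60, 11.71, 11.76 and 11.83 in PDGF-CC and at 11.83, 11.67 and 11.91 in PBS. The groups overlapped almost fully, with a difference of -0.08 ± 0.082 and an interval from 0.830-fold to 1.08-fold. It was -0.022 without PBS array 3, -0.14 without PBS array 2 and -0.034 when PDGF-CC array 1 was left out.

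**Figure D2:**
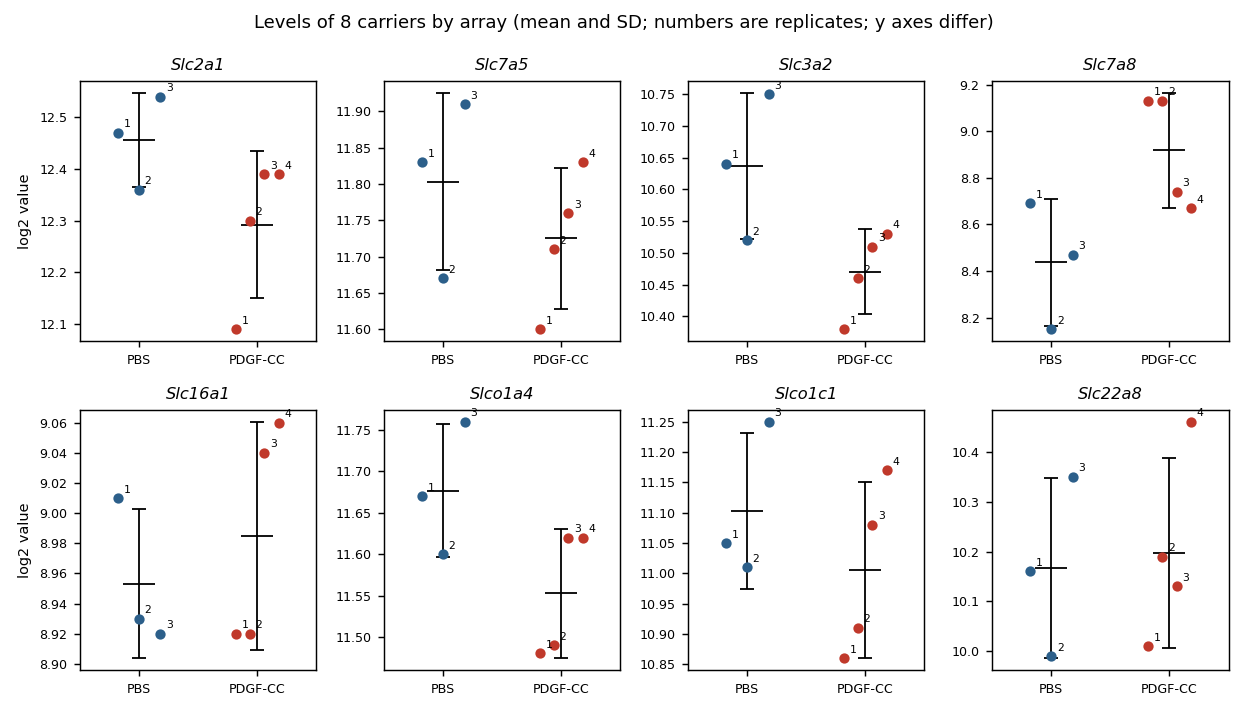
Log2 values of 8 carriers in each array, for PBS (blue, n = 3) and PDGF-CC (red, n = 4). Numbers are replicates, bars are mean and SD, and the y axes differ between panels. Slc7a8 is higher and Slc3a2 lower in most PDGF-CC arrays, and in every panel the groups overlap.

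A carrier was also set against its partner within each array by subtracting their log2 values, for 3 pairs chosen after these values were seen. Slc7a8 and Slc3a2 are the carriers with the smallest p, in opposite directions, so the shift of this pair follows largely from that choice, and the pairs are described with no test. The level of 1 probe set against another has no meaning, and only the shift between groups is read. Slc7a8 minus Slc3a2 was at -1.25, -1.33, -1.77 and -1.87 in PDGF-CC and at -1.95, -2.37 and -2.28 in PBS. The shift was +0.65, and it was +0.87 within numbers 1 to 4 and +0.47 within 5 to 7. Slc7a5 minus Slc3a2 was at 1.22, 1.25, 1.25 and 1.30 in PDGF-CC and at 1.19, 1.15 and 1.15 in PBS. This shift was small, at +0.09. The third pair was Slc16a1 and Bsg, which encodes basigin, the chaperone of the monocarboxylate carrier, and its shift was +0.06, with overlapping groups.

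**Figure D3:**
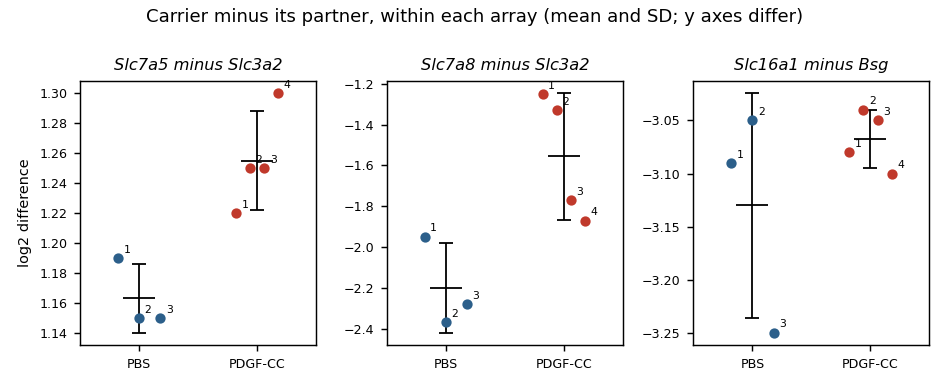
Log2 value of a carrier minus that of its partner within each array, for PBS (blue, n = 3) and PDGF-CC (red, n = 4), with mean and SD; the y axes differ. All 3 pairs were chosen after the values were seen. The groups do not overlap for either light chain against Slc3a2, with a small shift for Slc7a5 (+0.09), and overlap for Slc16a1 against Bsg. How often such pairs of any probe sets are free of overlap was not determined.

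Carriers of cationic amino acids were measured with little precision. Slc7a1, which encodes CAT1, differed by +0.16 ± 0.16, and PBS arrays 2 and 3 lay farthest apart, at 8.52 and 9.27. Without PBS array 2 the difference was -0.03, and without PBS array 3 it was +0.35. Slc7a3, which encodes CAT3, lay just above the filter, with group means of 4.35 and 4.49. It differed by -0.14 ± 0.24, and its interval, from 0.612-fold to 1.35-fold, was the widest of the 31.

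Of 5 carriers of small neutral amino acids, 2 were at higher and 3 at lower values, all between -0.10 and +0.12. Slc38a2, a sodium-coupled carrier that amino acid shortage is known to induce, was at 8.88, 8.84, 8.88 and 8.82 in PDGF-CC. In PBS it was at 8.81, 8.99 and 9.06, so that PBS array 1 was the lowest of all and the other two the highest. The difference was -0.10 ± 0.068, with an interval from 0.837-fold to 1.05-fold, and it was -0.17 without PBS array 1 and -0.043 without PBS array 3. Slc38a5, a glutamine carrier, was at 9.35, 9.21, 9.31 and 9.52 in PDGF-CC and at 9.45, 9.28 and 9.56 in PBS. The groups overlapped, with a difference of -0.08 ± 0.096, which was -0.16 without PBS array 2, -0.14 without PDGF-CC array 4, -0.038 when PDGF-CC array 2 was left out and -0.020 when PBS array 3 was. Slc38a3, a glutamine carrier that astrocytes also hold, differed by -0.07 ± 0.11.

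The exchangers ASCT1 and ASCT2 are encoded by Slc1a4 and Slc1a5. Slc1a4 was at 5.74, 5.54, 5.78 and 5.51 in PDGF-CC and at 5.54, 5.54 and 5.49 in PBS, with PDGF-CC arrays 1 and 3 above all others. Its difference was +0.12 ± 0.081, and it was +0.070 without PDGF-CC array 3 and +0.16 without PDGF-CC array 4. Slc1a5 differed by +0.05 ± 0.14 on its brighter probe set and by -0.17 ± 0.065 on the other, so the probe sets disagreed in direction. On that other probe set every PDGF-CC array lay below every PBS array, though PDGF-CC array 2 and PBS array 2 were both at 5.96 to 2 decimals. Slc1a1, the carrier of acidic amino acids EAAT3, differed by -0.03 ± 0.087, and by +0.0035 after repeated quantile normalization.

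Carriers of organic anions and thyroid hormone split evenly, with 2 at higher and 2 at lower values. Slco1a4, an organic anion carrier typical of mouse brain endothelium, was at 11.48, 11.49, 11.62 and 11.62 in PDGF-CC and at 11.67, 11.60 and 11.76 in PBS. Again only PBS array 2 lay among the PDGF-CC arrays. The difference was -0.13 ± 0.066, with an interval from 0.823-fold to 1.02-fold. It was -0.08 without PBS array 3, -0.07 after repeated quantile normalization and -0.17 without PBS array 2. Slco1c1, the thyroxine carrier, was at 10.86, 10.91, 11.08 and 11.17 in PDGF-CC and at 11.05, 11.01 and 11.25 in PBS. The groups overlapped, with a difference of -0.10 ± 0.098. It was -0.024 without PBS array 3, -0.050 without PDGF-CC array 1, -0.064 without PDGF-CC array 2 and -0.15 without PDGF-CC array 4. Slc22a8, the organic anion carrier OAT3, was at 10.01, 10.19, 10.13 and 10.46 in PDGF-CC and at 10.16, 9.99 and 10.35 in PBS. PDGF-CC array 4 was the highest and PBS array 2 the lowest, and the difference was +0.03 ± 0.12. It was -0.054 without either of these and +0.12 without PBS array 3. Slco2b1 differed by +0.03 ± 0.14 and by +0.08 ± 0.22 on its other probe set, where PBS array 2 stood low at 7.92.

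Monocarboxylate carriers lay close to no difference. Slc16a1, which encodes the lactate carrier MCT1, was at 8.92, 8.92, 9.04 and 9.06 in PDGF-CC and at 9.01, 8.93 and 8.92 in PBS. The groups overlapped fully, and the difference of +0.03 ± 0.059 had an interval from 0.928-fold to 1.13-fold and ranged from +0.0069 without PDGF-CC array 4 to +0.058 without PBS array 1. Slc16a4, a related carrier, differed by -0.05 ± 0.11.

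Carriers of taurine and creatine were both at slightly higher values. Slc6a8, the creatine carrier, was at 7.37, 7.41, 7.59 and 7.57 in PDGF-CC and at 7.41, 7.25 and 7.43 in PBS. PDGF-CC arrays 3 and 4 were above every PBS array, and the difference was +0.12 ± 0.080. It was +0.062 without PBS array 2 and +0.16 without PDGF-CC array 1. Slc6a6, the taurine carrier, differed by +0.09 ± 0.15, and by -0.10 without PBS array 2, which stood lowest at 11.17.

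Among carriers of vitamins and choline, the thiamine carrier gene Slc19a3 differed by -0.08 ± 0.078, the biotin and pantothenate carrier gene Slc5a6 by +0.17 ± 0.14 and the choline carrier gene Slc44a1 by -0.06 ± 0.10. Slc29a1, the nucleoside carrier ENT1, differed by +0.06 ± 0.052. Slc29a4, a monoamine carrier, was at 5.71, 5.73, 5.73 and 5.68 in PDGF-CC and at 5.73, 5.73 and 5.95 in PBS. PBS array 3 alone stood apart there, and the difference was -0.09 ± 0.069. It was -0.018 without that array and -0.13 without PBS array 1. Ion carriers were both at lower values, with Slc12a2, the sodium, potassium and chloride carrier NKCC1, at -0.06 ± 0.11 and the bicarbonate carrier gene Slc4a4 at -0.10 ± 0.11. The fatty acid transport proteins were at -0.05 ± 0.052 (Slc27a1) and -0.08 ± 0.11 (Slc27a4), and the zinc carrier gene Slc39a1 was at +0.08 ± 0.092. Slc25a4 encodes the ADP/ATP carrier of the inner mitochondrial membrane and is not a carrier of the vessel wall. It differed by -0.12 ± 0.090.

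Averaged over the list, carriers differed more between the PBS arrays than between the groups. PBS array 3 held the highest value of 18 of the 31 carriers, against 18% of all tested probe sets, and PBS array 2 held the lowest of 10, against 18.1%. In the mean of the 31 carriers, PDGF-CC arrays 1 to 4 deviated from the 7-array mean by -0.02, -0.06, +0.01 and +0.04, and PBS arrays 1 to 3 by -0.01, -0.10 and +0.13. The 14 endothelial markers, none of which is a carrier of the list, deviated by -0.05, -0.04, +0.01 and +0.05 in the PDGF-CC arrays and by +0.01, -0.09 and +0.12 in the PBS arrays. The values of both sets were thus highest in PBS array 3 and lowest in PBS array 2. The part of endothelial content in the carriers' differences was examined only by adding the endothelial mean as a covariate, chosen after these values were seen. With it the median difference of the carriers was -0.03 (-0.06 without it), Slc7a8 was at +0.48 (+0.48) and Slc3a2 at -0.14 (-0.17). Since 0 carriers were called without it, the 0 called with it says nothing about endothelial content. No list of another cell type was used as a covariate.

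**Figure D4:**
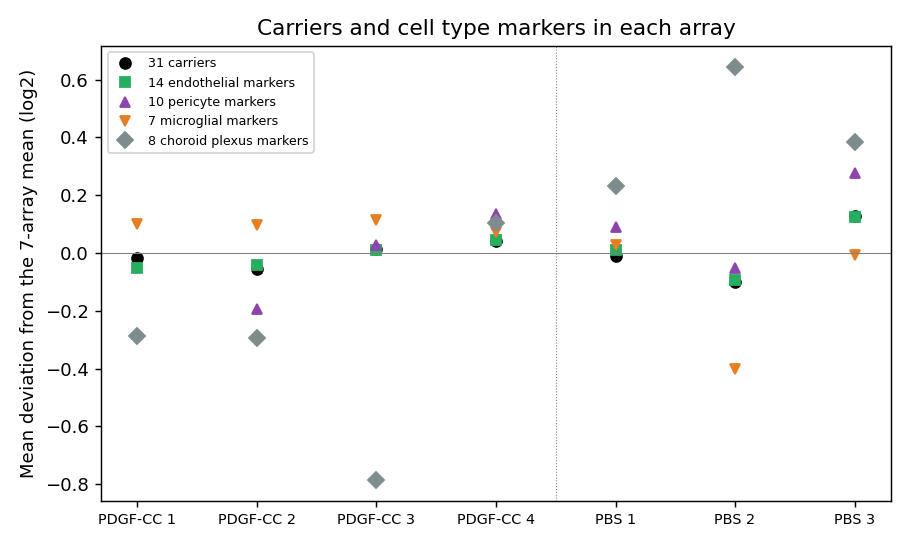
Mean deviation from the 7-array mean (log2) of the 31 carriers and of 4 lists of cell type markers in each array, PDGF-CC on the left and PBS on the right of the dotted line. The carriers lie close to the endothelial markers in every array and are highest in PBS array 3, while choroid plexus markers are lower in the PDGF-CC arrays.

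Markers of other cell types that hold some of these carriers were read beside them. The list means did not overlap between the groups for choroid plexus and microglia, and overlapped for pericytes and astrocytes. For microglia they nearly met, at 9.87 in PDGF-CC and 9.83 in PBS. Among single markers, 6 of 8 for choroid plexus, 1 of 7 for microglia and 1 of 10 for pericytes were free of overlap. Over all tested probe sets this share was 4.3%. All 8 measured choroid plexus markers were at lower values in PDGF-CC, with list means from 6.37 to 7.26 against 7.38 to 7.80 in PBS, and a median difference of -0.80. Some carriers are expressed by choroid plexus epithelium too, among them Slc12a2 and Slc22a8, at the values given above, -0.06 and +0.03. Which other carriers of the list are was not examined, so these values do not stand for all of them. Of 10 pericyte markers 9 were at lower values, with list means from 8.62 to 9.03 in PDGF-CC and from 8.85 to 9.18 in PBS. Of 7 microglial markers 6 were at higher values, with Tmem119 the exception (-0.05). Their list means ran from 9.87 to 9.91 in PDGF-CC and from 9.40 to 9.83 in PBS. They were lowest in PBS array 2, which also held the lowest value of 10 of the 31 carriers, Slc7a8 among them. The 8 astrocyte markers had list means from 6.75 to 7.03 and from 6.83 to 7.0. None of these markers passed the adjusted threshold, and every measured marker of these 4 lists was above the filter. The part of these cells in the carriers' values was not tested.

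Other genes of transport did not pass the test either. Of 30 further carriers listed, 26 were measured, with 16 at higher and 10 at lower values, 0 past the threshold and a median difference of +0.04. Those with the smallest p were Slc46a1, a folate carrier (+0.16 ± 0.083), Slc43a2, an amino acid carrier (+0.17 ± 0.094), Flvcr2, the choline carrier of brain endothelium (-0.10 ± 0.064), and Mfsd2a, the carrier of omega-3 lipids (+0.26 ± 0.19). Of 11 measured partners and neighbours of the carriers 6 were at higher and 5 at lower values, again with 0 past the threshold. The transferrin receptor gene Tfrc was at +0.63 ± 0.20, the efflux pump gene Abcg2 at -0.21 ± 0.10, the insulin receptor gene Insr at -0.12 ± 0.065, and Emb, a second chaperone of monocarboxylate carriers, at -0.67 ± 0.33.

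Amino acid shortage induces several of these carriers through the factor ATF4. Of 14 measured genes of that response 6 were at higher and 8 at lower values, with a median of -0.01 and 0 past the threshold. Sesn2, a stress-induced inhibitor of mTORC1, was at +0.23 ± 0.098, Phgdh, an enzyme of serine synthesis, at +0.20 ± 0.13, Shmt2, of mitochondrial folate metabolism, at -0.18 ± 0.083 and Vldlr, a lipoprotein receptor, at -0.17 ± 0.11. Of 11 measured genes of hypoxia and glucose handling 3 were at higher and 8 at lower values, with a median of -0.06 and 0 past the threshold. They included Pfkfb3, an activator of glycolysis, at -0.57 ± 0.15, the mitophagy receptor gene Bnip3 at -0.43 ± 0.14, the hexokinase gene Hk2 at +0.26 ± 0.092 and the lactate exporter gene Slc16a3 at +0.17 ± 0.090. Of 10 genes that glucocorticoids induce, a list drawn up with their earlier values known, 9 were at lower values, with a median of -0.80 and 0 past the threshold. Among them the cell cycle inhibitor gene Cdkn1a was at -1.07 ± 0.093, the mTORC1 inhibitor gene Ddit4 at -1.37 ± 0.26, the kinase gene Pdk4, a brake on pyruvate oxidation, at -0.89 ± 0.18 and the NF-kB inhibitor gene Nfkbia at -0.56 ± 0.12.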

How the data were processed

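RNA of 7 samples was measured on 1 array each. The authors deposited normalized values; their range and similar distributions fit a log2 scale, and the submitters' processing notes name Affymetrix Expression Console, RMA and limma without versions, order or settings. RMA in its usual form makes the distributions of probe intensities equal between arrays, which removes a difference in overall RNA level. It does so before probe sets are summarised. Repeated quantile normalization of the deposited values still moved the median difference of the carriers from -0.06 to -0.03. The genome build is not given in the sources used here. Of 33793 probe sets, 23521 had 1 gene symbol in the platform annotation, 1814 several and 8458 none, and no gene was named from a probe set with several.

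Differences between PDGF-CC and PBS were fitted with limma 3.58.1 (lmFit, eBayes; R 4.3.3), without covariates, 2-sided, with Benjamini-Hochberg adjustment at 0.05 over the 17734 probe sets with a symbol whose mean exceeded the 30th percentile of such probe sets (4.14). Second probe sets were read from the same fit without that filter. The script was tested on simulated data. The carriers, the lists and the rule for genes given in full (7 classic carriers and the 8 with the smallest p; up to 4 genes of each other list of transport or response genes) were chosen with earlier results of these data known. Marker lists for smooth muscle, fibroblasts, ependyma, border macrophages, oligodendrocytes and their precursors were read too and had median differences of +0.14, -0.08, +0.02, -0.18, +0.18 and +0.03. Figures were drawn with matplotlib 3.10.9.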

Additional observations from a re-analysis of the deposited data

Results flagged for a closer look

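Among the 31 carriers tested for a PDGF-CC array far from the other arrays of its group, 2 had one, where chance gives about 1 in 20 groups. For Slc29a1 the gap of array 1, at 6.40, to the others made up the whole range of the group (a ratio of 1), because arrays 2, 3 and 4 held exactly the same value, 6.30. For Slc27a1 array 2, at 5.70, stood below the others, which lay between 5.81 and 5.82 (a ratio of 0.916). Of the 31 carriers, 14 had a value that at least 2 arrays shared exactly, against 63.6% of all tested probe sets, and why values coincide was not tested. The PBS group, with 3 arrays, is too small for this rule.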

How the results depend on the processing

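In all 18 alternatives 0 carriers passed the threshold, and the lowest adjusted p of any carrier was 0.499. The count over all probe sets was 3 where the filter was set at the 50th percentile, with arrays centred on their median and with a trended and robust prior, 1 after repeated quantile normalization, and 0 to 1 with arrays left out in turn. Of 31 differences, 18 kept their sign in every alternative that tested them (Slc7a3 fell below the filter at the 50th percentile), among them Slc7a8, Slc3a2, Slco1a4, Slc2a1 and Slc7a5, and 13 changed it in at least 1. Signs changed for Slc1a1 after repeated quantile normalization (+0.0035) and with array weights (+0.017), for Slc16a4 (+0.011) and Slc12a2 (+0.0075) with the description number as a covariate, and for Slc16a4 with the endothelial mean as a covariate (+0.0011). With the replicate block Slco2b1 was at -0.0014 and Slc22a8 at -0.054, and with numbers 1 to 4 against 5 to 7 as a block they were at -0.010 and -0.0052. With the mean of all its probe sets Slc1a5 was at -0.060. Leaving out arrays in turn gave ranges of -0.025 to +0.35 (Slc7a1), -0.31 to +0.057 (Slc7a3), -0.14 to +0.18 (Slco2b1), -0.16 to +0.067 (Slc16a4), -0.054 to +0.12 (Slc22a8), -0.10 to +0.24 (Slc6a6), -0.14 to +0.029 (Slc38a3), -0.13 to +0.044 (Slc1a1), -0.044 to +0.16 (Slc1a5), -0.15 to +0.0087 (Slc44a1), -0.12 to +0.0064 (Slc12a2), -0.18 to +0.063 (Slc27a4) and -0.00065 to +0.18 (Slc39a1). The cause of these changes was not tested. Same-numbered arrays of the groups correlated at 0.163, 0.107 and 0.0844 in their deviations. For PDGF-CC arrays 1, 2 and 3 these were the highest correlations with any PBS array. PBS array 3, however, correlated best with PDGF-CC array 4 (0.32), so these values do not settle whether same-numbered samples are paired. The block, in which PDGF-CC array 4 has no partner, changed no call. Its differences were the same as those without PDGF-CC array 4, so these alternatives are not independent. The pair shifts kept their sign without each array, from +0.55 to +0.77 for Slc7a8 and from +0.08 to +0.11 for Slc7a5 against Slc3a2. For Slc16a1 against Bsg they ran from +0.004 to +0.10. As the pairs were chosen from these same values, this is no test of them.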
